A study of Mus musculus with 24 samples.

Results

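Enzymes that add or remove methyl and acetyl groups on histones were followed through newly made RNA in mouse embryonic stem cells that lack the RNA demethylase ALKBH5 or carry a deletion in it. The 51 genes were taken by symbol, as the lines of the deposited gene table whose Ensembl identifier maps to a fixed list of histone modifying enzymes, out of 56941 gene lines. They comprise 15 lysine demethylases, 4 genes of the Polycomb repressive complex 2 (PRC2) core, 7 genes of the H3K4 methyltransferase family, 5 H3K9 methyltransferases, 3 H3K36 or H3K79 methyltransferases, 8 deacetylases and 9 acetyltransferases. All 51 had enough reads to be tested, among 22435 tested genes in all. The 24 libraries came from the E14TG2a line, a mouse embryonic stem cell line, grown in serum medium with LIF and the MEK and GSK3 inhibitors PD0325901 and CHIR99021. The genotypes were WT, Alkbh5 KO and Alkbh5 del-cIDR. Cells of each took up 5-ethynyl uridine (EU, a uridine analogue built into RNA as it is made) at 1 mM for 10, 20, 40 or 60 min, with 2 libraries for each genotype and time, so that KO and del-cIDR were each set against WT at the same times. The labels name no clones or separate cultures beyond the dishes seeded a day before labelling, so each genotype may be 1 line, and p-values then describe the spread between these libraries alone.

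Histone modifying enzymes set the marks that genes are read through. PRC2 writes methylation of H3K27, which accompanies silent developmental genes in embryonic stem cells. Most KMT2 and SETD1 enzymes write H3K4 methylation at promoters and enhancers, and the H3K9 enzymes write marks of heterochromatin. Demethylases of the KDM families remove such marks, and deacetylases and acetyltransferases oppose each other on lysines of the histone tails. ALKBH5 itself removes the N6-methyl mark of adenosine from RNA.

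Promoter sequences are shown for the PRC2 core. Relative to the median gene, 30.3% of all tested genes differed between KO and WT. The PRC2 core was chosen because it is the only group here in which every gene did, in different directions. That does not hold on other scales, since the Ezh2 call was lost when genes were centred on their own chromosome, and on the spike-in scale of the deposited values only Ezh2 of the 4 was called. RefSeq promoters (250 bases before to 50 after the transcript start, build GRCm38.p6) were found for 39 of the 51 genes, as 54 sequences of 300 bases. The capitals mark each CCAAT or its reverse complement ATTGG, the letters of the CCAAT box bound by NF-Y. The Eed match lies within the 50 bases after the transcript start. Ezh2 lies at chr6:47594981-47595280, minus strand, Eed at chr7:89980927-89981226, minus strand, Suz12 at chr11:79992856-79993155, plus strand and Ezh1 at chr11:101226414-101226713, minus strand.
Ezh2: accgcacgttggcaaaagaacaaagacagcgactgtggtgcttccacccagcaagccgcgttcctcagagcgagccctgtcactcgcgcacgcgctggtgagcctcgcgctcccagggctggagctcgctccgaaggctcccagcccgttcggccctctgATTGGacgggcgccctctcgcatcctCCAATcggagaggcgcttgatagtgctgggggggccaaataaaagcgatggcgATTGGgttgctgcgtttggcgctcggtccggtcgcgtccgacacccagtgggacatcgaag
Eed: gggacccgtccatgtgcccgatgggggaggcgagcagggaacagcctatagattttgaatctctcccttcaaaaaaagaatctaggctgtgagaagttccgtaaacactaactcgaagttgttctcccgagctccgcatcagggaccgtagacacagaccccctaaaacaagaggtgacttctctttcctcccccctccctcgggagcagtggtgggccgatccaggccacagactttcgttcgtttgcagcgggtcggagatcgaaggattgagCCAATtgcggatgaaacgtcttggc
Suz12: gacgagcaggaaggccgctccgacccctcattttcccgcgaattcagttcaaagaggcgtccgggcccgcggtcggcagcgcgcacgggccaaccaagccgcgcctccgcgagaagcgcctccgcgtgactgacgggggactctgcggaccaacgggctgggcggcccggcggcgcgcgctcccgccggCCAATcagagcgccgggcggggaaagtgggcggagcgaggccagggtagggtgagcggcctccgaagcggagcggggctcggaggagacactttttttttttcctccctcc
Ezh1: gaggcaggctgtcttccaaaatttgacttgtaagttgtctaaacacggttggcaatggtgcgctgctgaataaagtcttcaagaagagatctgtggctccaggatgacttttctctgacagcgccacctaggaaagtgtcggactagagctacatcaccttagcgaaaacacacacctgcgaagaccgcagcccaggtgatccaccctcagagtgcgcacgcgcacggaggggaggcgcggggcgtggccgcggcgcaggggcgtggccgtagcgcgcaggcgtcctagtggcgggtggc
The Ezh2 promoter held 3 such matches, Eed and Suz12 held 1 each and Ezh1 held 0. CCAAT on either strand was present in 37.0% of the member promoters and in 37.41% of all 32851 promoters of the table. TATAAA (either strand) was present in 1 of the 54 member promoters and in 13.62% of all, and GGGCGGGG (either strand, a GC box) in 38.9% and 17.59%. The member promoters held a median of 28 CpG dinucleotides against 7 over all promoters, with 31 in Ezh2, 17 in Eed, 41 in Suz12 and 23 in Ezh1. These matches describe the letters in the windows only.

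Levels are given as log2 of spike-in scaled reads plus a pseudocount of 1, relative to the median tested gene of the same library, so that 0 is the median gene and a step of 1 is a factor of 2. They are not divided by gene length and are compared only between libraries, never between genes, and adding 1 understates the differences of genes with few reads. For 34 of the 51 genes the reads of WT at 60 min could be recovered only as the sum of both libraries, which then count as 1 value, called the joint value. Libraries held 3128897 to 21433318 gene reads and 6037 to 23382 reads of the Drosophila spike-in. Over Alkbh5 the level was 3.29 to 4.20 in WT, 2.67 to 3.39 in KO and 2.55 to 3.71 in del-cIDR, with differences from WT of −0.61 ± 0.06 and −0.47 ± 0.06 (standard error). Reads counted over the whole gene do not test either deletion. All 9 stem cell markers were measured with 1 of them higher and 4 lower in KO, and 1 and 1 in del-cIDR, than in WT. Of 6 neural markers 4 were higher and 1 lower in KO, and 0 were higher and 4 lower in del-cIDR. Their sum per library, in spike-in scaled reads neither logged nor centred, was 1960 to 8410 in KO and 440 to 3140 in del-cIDR against 749 to 4420 in WT. The medians were 4510, 2410 and 2070. These ranges span all labelling times, and on that scale the median gene itself stood 0.30 (log2) higher in KO and 0.15 higher in del-cIDR on average. The same sums of the stem cell markers were 21400 to 91000 in KO, 10200 to 95200 in del-cIDR and 14100 to 90700 in WT, with medians of 46300, 62700 and 42100. Of 9 endoderm and mesoderm markers, 9 fibroblast markers and 6 trophoblast markers, 5, 3 and 4 had enough reads to be tested, and 0, 0 and 0 were higher and 0, 0 and 1 lower in KO, and 0, 1 and 1 higher and 0, 0 and 1 lower in del-cIDR. The part of these markers in the results below was not tested, and fewer cells of a type cannot be told apart from less RNA per cell.

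Relative to the median gene, KO exceeded WT in 5 of the 51 genes and fell short of it in 18 over the 4 times (limma, Benjamini-Hochberg adjusted p under 0.05 over all tested genes). Over all 22435 genes the same test called 30.3% in either direction, 14.2% as higher and 16% as lower. All members except Hdac7 and Hdac8 had reads well above the median tested gene, where the test has more power. The shares over all genes, here and below, are not matched for level, so a higher share among members cannot be read as an excess. The median difference of the members was −0.07 and that of all genes −0.02. In del-cIDR 7 members were higher and 18 lower than in WT, against 25.5% of all genes called in either direction, 10.1% as higher and 15.4% as lower, with a median of −0.07 for the members and −0.02 for all genes. Differences stayed below a factor of 2 in both comparisons. At a joint value overlap rests on that 1 value, which lies apart from the other genotype more readily than 2 libraries would. Joint values occurred in 34 of the 51 members but in 2816 of the 22435 tested genes. The shares without overlap are therefore not like for like. In 13 members every KO library lay on the same side of every WT library at all 4 times (15.8% of all genes), above WT in 3 (7.93%) and below it in 10 (7.88%). In 11 members every del-cIDR library did so (9.66% of all genes), above WT in 3 (3.56%) and below it in 8 (6.1%). Both comparisons use the same WT libraries.

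**Figure D1:**
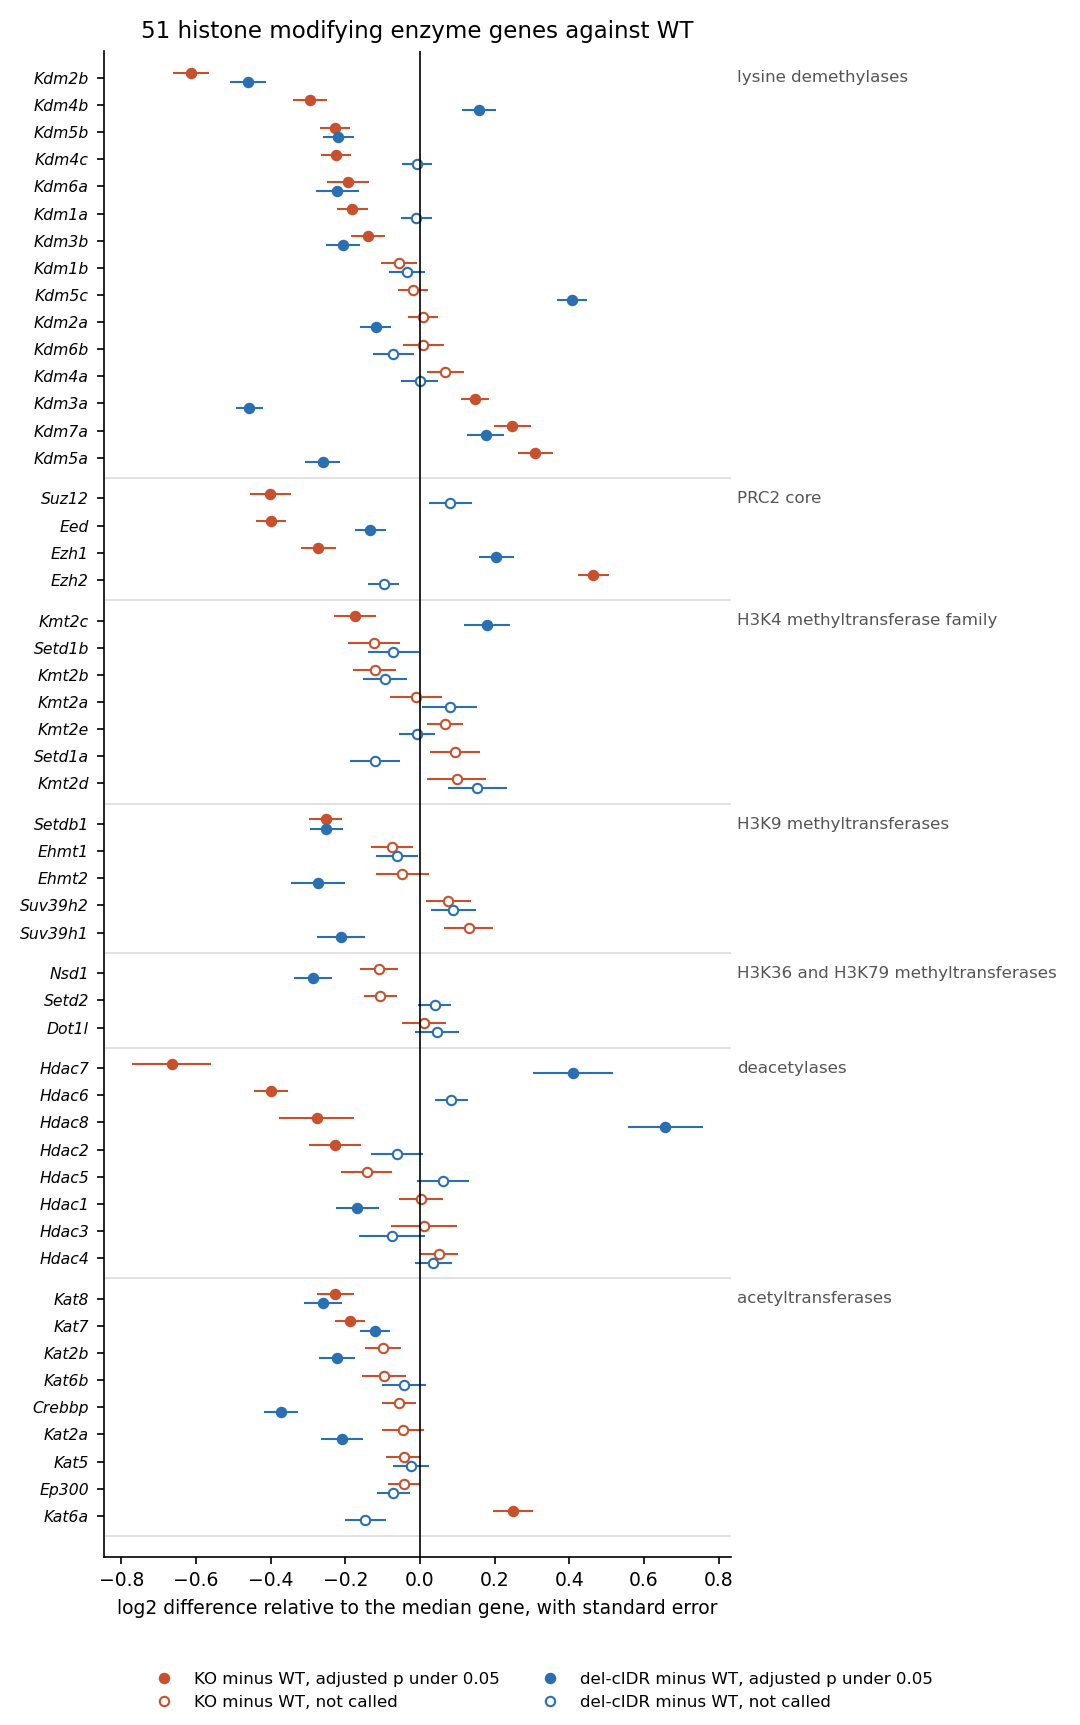
Differences of all 51 genes from WT, KO in orange and del-cIDR in blue, as log2 relative to the median gene (x axis) with the standard error from limma as bars. Genes are grouped by role and sorted by the KO difference. Filled points passed an adjusted p of 0.05 and open points did not. KO ranges from −0.67 (Hdac7) to 0.46 (Ezh2), and del-cIDR from −0.46 (Kdm2b) to 0.66 (Hdac8).

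Relative to the median gene the 4 PRC2 core genes differed from WT in both directions in KO, 1 higher and 3 lower (14.2% and 16% of all genes). Ezh2, the main methyltransferase subunit in proliferating cells, was 0.46 ± 0.04 higher than in WT, while Suz12 and Eed, the scaffold subunit and the subunit that binds the finished mark, were lower (−0.40 each), and Ezh1, the alternative methyltransferase, was lower too. Ezh2 lies on chromosome 6, whose tested genes had a median KO difference of 0.40, and centred on its own chromosome (a setting chosen after seeing the data) it stood at 0.12 and was not called (limma adjusted p = 0.077). WT libraries had an Ezh2 level of 4.57 and 4.51 after 10 min, 4.25 and 4.28 after 20 min, 4.78 and 4.74 after 40 min and a joint value of 4.96 after 60 min. KO libraries had 4.98 and 4.98 after 10 min, 4.93 and 4.94 after 20 min, 5.21 and 5.08 after 40 min and 5.38 and 5.24 after 60 min. Every KO library exceeded the WT libraries of its time. In del-cIDR Ezh2 stood at 4.34 and 4.32 after 10 min, 4.35 and 4.42 after 20 min, 4.57 and 4.61 after 40 min and 4.78 and 4.87 after 60 min. These values lie above WT at 20 min and below it at the other times. The KO difference of Ezh2 had a limma adjusted p of 3.3e-06, and the del-cIDR difference was −0.10 ± 0.04 (limma adjusted p = 0.11).

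Eed moved the other way in KO. Its WT level was 4.88 and 4.80 after 10 min, 4.80 and 4.85 after 20 min, 5.20 and 5.17 after 40 min and a joint 5.28 after 60 min. In KO it was 4.55 and 4.50 after 10 min, 4.53 and 4.43 after 20 min, 4.81 and 4.65 after 40 min and 4.83 and 4.77 after 60 min. All KO libraries were below the WT libraries of their time, a difference of −0.40 ± 0.04 (limma adjusted p = 9.4e-06). The del-cIDR libraries gave 4.40 and 4.42 after 10 min, 4.77 and 4.79 after 20 min, 5.12 and 5.10 after 40 min and 5.29 and 5.32 after 60 min. The del-cIDR difference from WT, −0.13 ± 0.04 on average (limma adjusted p = 0.030), was −0.43 at 10 min and between −0.08 and 0.02 at the later times, and the call was lost without the 10 min libraries.

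Suz12 was likewise lower in KO. WT libraries stood at 5.38 and 5.23 after 10 min, 5.19 and 5.14 after 20 min, 5.90 and 5.75 after 40 min and a joint 6.22 after 60 min. KO libraries stood at 5.02 and 4.88 after 10 min, 4.97 and 4.89 after 20 min, 5.36 and 5.20 after 40 min and 5.80 and 5.69 after 60 min. The groups did not overlap at any time, and the difference was −0.40 ± 0.06 (limma adjusted p = 0.00014). For del-cIDR the values were 5.18 and 5.13 after 10 min, 5.43 and 5.28 after 20 min, a joint 5.92 after 40 min and 6.36 and 6.46 after 60 min, with a mean difference from WT of 0.08 ± 0.06 (limma adjusted p = 0.34). Ezh1 fell by 0.27 ± 0.05 in KO (limma adjusted p = 0.00053) and was 0.20 ± 0.05 higher in del-cIDR (limma adjusted p = 0.0059), without overlap with WT at any time in either. Between the mutants all 4 genes differed (43.5% of all genes were called). Ezh2 differed by −0.56 ± 0.04, and Suz12, Ezh1 and Eed by 0.48 ± 0.06, 0.48 ± 0.05 and 0.27 ± 0.04 (del-cIDR minus KO). The median of chromosome 6, where Ezh2 lies, was −0.48 in that comparison. On the deposited spike-in scale, which is not centred on the median gene, Ezh2 remained called in KO at 0.78 (limma adjusted p = 0.0031), while Eed, Suz12 and Ezh1 were at −0.08, −0.09 and 0.04 and were not called.

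**Figure D2:**
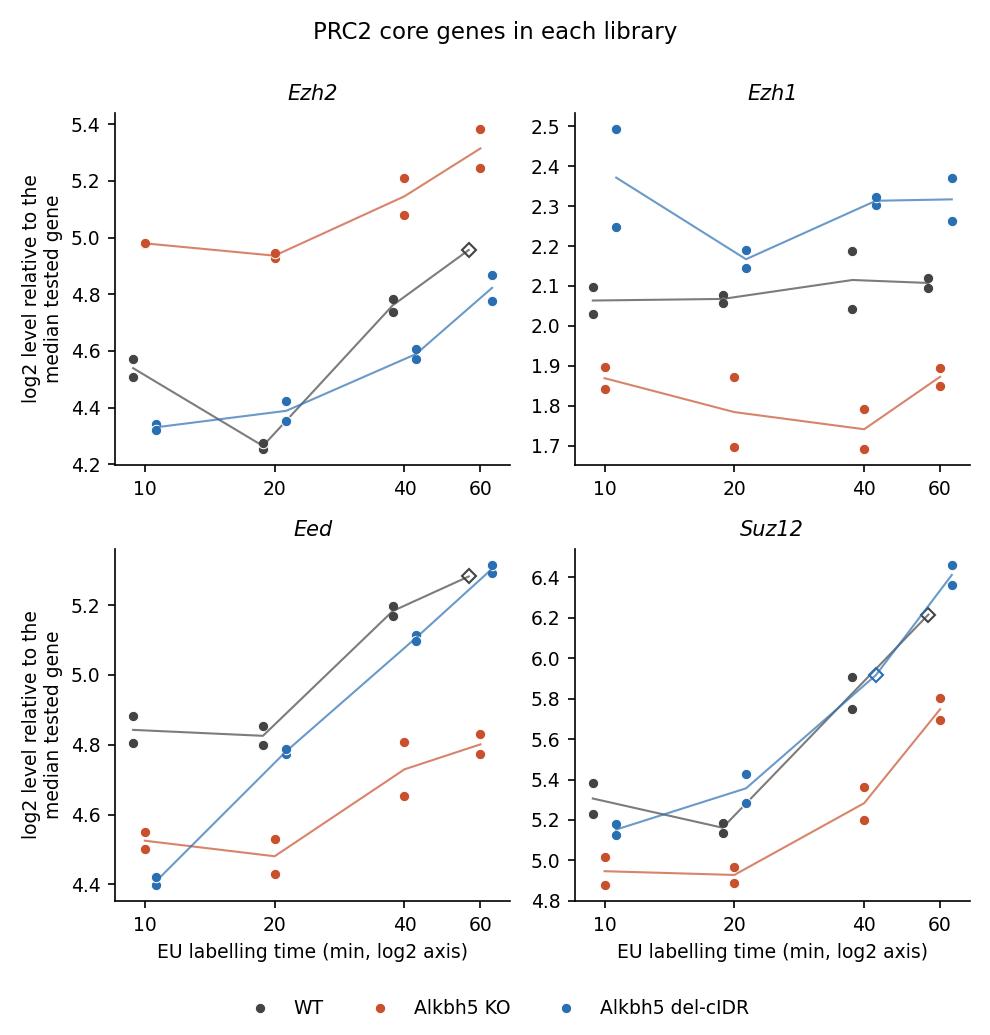
Level of the 4 PRC2 core genes in each library, as log2 relative to the median tested gene (y axis), against EU labelling time in min (x axis, log2). Points are libraries, open diamonds are joint values of 2 libraries, and lines join the group means. KO lies above WT for Ezh2 and below WT for Ezh1, Eed and Suz12 at all 4 times.

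Of the 15 lysine demethylases 3 were higher and 7 lower in KO, and 3 were higher and 7 lower in del-cIDR. Over all genes, 14.2% were higher and 16% lower in KO, and 10.1% and 15.4% in del-cIDR. Kdm2b, an H3K36 demethylase that binds unmethylated CpG islands and recruits a variant Polycomb repressive complex 1, was lower in both mutants. WT libraries had a Kdm2b level of 4.34 and 4.39 after 10 min, 4.34 and 4.52 after 20 min, 4.37 and 4.44 after 40 min and a joint 4.68 after 60 min. KO libraries had 3.72 and 3.81 after 10 min, 3.87 and 3.85 after 20 min, 3.90 and 3.73 after 40 min and 3.96 and 3.99 after 60 min. Those of del-cIDR had 3.83 and 3.99 after 10 min, 3.81 and 3.80 after 20 min, 3.96 and 4.0 after 40 min and 4.38 and 4.29 after 60 min. Neither mutant overlapped with WT at any time. The difference was −0.61 ± 0.05 in KO (limma adjusted p = 1.1e-06) and −0.46 ± 0.05 in del-cIDR (limma adjusted p = 2.4e-05).

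Kdm3a, which removes H3K9 methylation, was much lower in del-cIDR and only slightly higher in KO. Its WT level was 5.50 and 5.47 after 10 min, 5.42 and 5.44 after 20 min, 6.15 and 6.14 after 40 min and a joint 6.31 after 60 min. The del-cIDR libraries gave 4.67 and 4.68 after 10 min, 5.26 and 5.22 after 20 min, 5.57 and 5.56 after 40 min and 6.04 and 6.08 after 60 min. All of them were below the WT values, by 0.81, 0.19, 0.58 and 0.25 in the order of the times, and the mean difference was −0.46 ± 0.04 (limma adjusted p = 4.4e-06). In KO the values were 5.76 and 5.78 after 10 min, 5.78 and 5.82 after 20 min, a joint 6.08 after 40 min and 6.34 and 6.27 after 60 min. The KO libraries were above WT at 10 and 20 min only, and the call of 0.15 ± 0.04 (limma adjusted p = 0.012) was lost without the 10 min libraries and turned to −0.20 when centred on chromosome 6, where Kdm3a lies. Kdm5c, an X-linked H3K4 demethylase, passed as higher in del-cIDR. It stood at 4.04 and 4.11 after 10 min, 4.0 and 4.09 after 20 min, 4.25 and 4.36 after 40 min and a joint 4.52 after 60 min in WT. In del-cIDR it stood at 4.40 and 4.47 after 10 min, 4.40 and 4.46 after 20 min, 4.64 and 4.70 after 40 min and 5.00 and 5.07 after 60 min. The del-cIDR libraries were above WT at every time, by 0.41 ± 0.04 (limma adjusted p = 1.4e-05), and centred on the X chromosome it stood at 0.13 and was not called. In KO Kdm5c was at 3.98 and 3.98 after 10 min, 4.11 and 4.15 after 20 min, 4.30 and 4.28 after 40 min and 4.49 and 4.46 after 60 min, a difference of −0.02 ± 0.04, and the direct difference between the mutants was 0.42 ± 0.04 (limma adjusted p = 1.1e-06).

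The other demethylases that were higher in KO were Kdm5a, an H3K4 demethylase, at 0.31 ± 0.05 and Kdm7a, which acts on H3K9 and H3K27, at 0.25 ± 0.05. Both lie on chromosome 6, and centred on it they stood at −0.04 and −0.10 and were not called. In del-cIDR Kdm5a was at −0.26 ± 0.05 and passed as lower, and Kdm7a was at 0.18 ± 0.05 and passed as higher. Kdm4b, an H3K9 demethylase, was lower in KO at −0.29 ± 0.04 and higher in del-cIDR at 0.16 ± 0.04. Its relatives differed in outcome, with Kdm4c lower in KO at −0.23 ± 0.04 and Kdm4a not called in either (0.07 and 0.00). The H3K4 demethylase Kdm5b was lower by similar amounts in KO (−0.23 ± 0.04) and del-cIDR (−0.22 ± 0.04), as were the H3K27 demethylase Kdm6a (−0.19 and −0.22, both ± 0.06) and Kdm3b (−0.14 and −0.21, both ± 0.05). Kdm1a, which encodes LSD1, the H3K4 demethylase of the CoREST complex, was lower in KO at −0.18 ± 0.04 and at −0.01 in del-cIDR. Kdm2a was lower in del-cIDR at −0.12 ± 0.04 and at 0.01 in KO. Kdm1b and Kdm6b were called in neither, with values between −0.07 and 0.01.

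Among the 7 genes of the H3K4 methyltransferase family 1 was lower in KO and 1 higher in del-cIDR, against 16% and 10.1% of all genes. Both calls were Kmt2c, an enhancer enzyme, at −0.17 ± 0.06 and 0.18 ± 0.06. Its direct difference between the mutants was 0.35 ± 0.06 (limma adjusted p = 0.00032). The other 6 genes lay between −0.12 and 0.15 in both comparisons. Of the 5 H3K9 methyltransferases 1 was lower in KO and 3 were lower in del-cIDR, against 16% and 15.4% of all genes. Setdb1, which silences endogenous retroviruses in embryonic stem cells, was lower in both, at −0.25 ± 0.04 each, without overlap with WT at any time. Ehmt2, encoding G9a, was at −0.27 ± 0.07 in del-cIDR and −0.05 in KO. Suv39h1, an enzyme of pericentric heterochromatin, was at −0.21 ± 0.07 in del-cIDR and at 0.13 in KO, where it was not called, and the mutants differed by −0.34 ± 0.06 (limma adjusted p = 0.00055). Ehmt1 and Suv39h2 were not called against WT. Among the H3K36 and H3K79 enzymes, Nsd1, which writes H3K36 dimethylation, was lower in del-cIDR at −0.29 ± 0.05, with all del-cIDR libraries below WT, while Setd2 and Dot1l were not called and lay between −0.11 and 0.05.

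The 8 deacetylases held the largest differences of all members, those of Hdac7 and Hdac8. In WT at 10 min these genes also had the fewest spike-in scaled reads of the members, with means of 59.33 and 39.38. In KO 0 deacetylases were higher and 4 lower (14.2% and 16% of all genes), and in del-cIDR 2 were higher and 1 lower (10.1% and 15.4%). Hdac7, a class IIa deacetylase, had a level of 0.36 and 0.55 after 10 min, 0.69 and 1.23 after 20 min, −0.05 and 0.21 after 40 min and −0.22 and 0.06 after 60 min in WT. Its KO values were −0.65 and −0.40 after 10 min, −0.02 and 0.34 after 20 min, −0.43 and −0.11 after 40 min and −0.84 and −0.37 after 60 min. The del-cIDR values were 1.29 and 1.24 after 10 min, 0.90 and 0.83 after 20 min, 0.50 and 0.66 after 40 min and 0.18 and 0.52 after 60 min. KO was below WT without overlap at every time, and del-cIDR was above WT except at 20 min, where the WT libraries lay on both sides of it. The KO difference was −0.67 ± 0.11 (limma adjusted p = 0.00026), the del-cIDR difference 0.41 ± 0.11 (limma adjusted p = 0.011), and the difference between the mutants 1.07 ± 0.11 (limma adjusted p = 1.7e-06).

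Hdac8, an X-linked class I deacetylase, was higher in del-cIDR. The WT levels were −0.25 and 0.00 after 10 min, −0.30 and −0.55 after 20 min, 0.11 and 0.22 after 40 min and 0.01 and −0.07 after 60 min. In del-cIDR they were 0.44 and 0.84 after 10 min, 0.34 and 0.61 after 20 min, 0.48 and 0.44 after 40 min and 0.63 and 0.67 after 60 min. Every del-cIDR library was above every WT library of its time, by 0.66 ± 0.10 on average (limma adjusted p = 0.00032). KO gave −0.19 and −0.90 after 10 min, −0.76 and −0.72 after 20 min, −0.03 and 0.08 after 40 min and −0.10 and −0.42 after 60 min. Those overlapped with WT at 10 min, and the KO difference of −0.28 ± 0.10 stood at the threshold (limma adjusted p = 0.049976) and was lost when any of 18 libraries was left out.

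Hdac6, a cytoplasmic deacetylase that is also X-linked, was lower in KO. Its WT level was 3.37 and 3.58 after 10 min, 3.47 and 3.56 after 20 min, 3.29 and 3.33 after 40 min and 3.27 and 3.19 after 60 min. In KO it was 2.89 and 2.98 after 10 min, 3.05 and 3.04 after 20 min, 3.07 and 2.95 after 40 min and 2.93 and 2.94 after 60 min. The groups did not overlap, and the difference was −0.40 ± 0.04 (limma adjusted p = 1.3e-05). In del-cIDR it was 3.64 and 3.70 after 10 min, 3.31 and 3.42 after 20 min, 3.38 and 3.48 after 40 min and 3.45 and 3.34 after 60 min, on average 0.08 ± 0.04 from WT, which was not called, while centred on the X chromosome it passed as lower at −0.20. Of the nuclear class I enzymes, Hdac2 was lower in KO at −0.23 ± 0.07 and at −0.06 in del-cIDR. Hdac1, its paralogue, was at 0.00 in KO and at −0.17 ± 0.06 in del-cIDR, a call at the threshold (limma adjusted p = 0.049825). Hdac3, Hdac4 and Hdac5 lay between −0.14 and 0.06 and were not called.

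Of the 9 acetyltransferases 1 was higher and 2 lower in KO, against 14.2% and 16% of all genes, and 0 were higher and 5 lower in del-cIDR, where 10.1% of all genes were higher and 15.4% lower. Their del-cIDR median was −0.15, against −0.02 for all genes, and all 9 values were below 0. On the deposited spike-in scale 0 of the 9 were called in del-cIDR, with values from −0.20 to 0.15 and a median of 0.03. Crebbp, encoding the CREB binding protein, had WT levels of 4.60 and 4.67 after 10 min, 4.72 and 4.75 after 20 min, 4.95 and 5.04 after 40 min and a joint 5.39 after 60 min. Its del-cIDR levels were 4.26 and 4.23 after 10 min, 4.24 and 4.40 after 20 min, 4.56 and 4.64 after 40 min and 5.10 and 5.10 after 60 min. They were below WT at every time, by 0.29 to 0.41, and the mean difference was −0.37 ± 0.05 (limma adjusted p = 8.4e-05). The KO libraries gave 4.61 and 4.73 after 10 min, 4.76 and 4.89 after 20 min, 4.78 and 4.85 after 40 min and 5.21 and 5.22 after 60 min, above WT at 20 min and below it at 40 and 60 min, with a mean of −0.06 ± 0.05. Ep300, the paralogue of Crebbp, was called in neither comparison (−0.04 and −0.07). Kat2a and Kat2b, the acetyltransferases of the SAGA and ATAC complexes, were lower in del-cIDR at −0.21 ± 0.06 and −0.22 ± 0.05 and at −0.05 and −0.10 in KO. Kat8, the H4K16 acetyltransferase, was lower in both, at −0.23 ± 0.05 in KO and −0.26 ± 0.05 in del-cIDR, and Kat7, an H3K14 acetyltransferase, at −0.19 ± 0.04 and −0.12 ± 0.04. Kat6a was the single acetyltransferase that passed as higher in KO, at 0.25 ± 0.05. Centred on chromosome 8, where it lies, it stood at −0.08 and was not called. In del-cIDR it was at −0.15 ± 0.05, which was not called. Kat5 and Kat6b lay between −0.10 and −0.02.

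**Figure D3:**
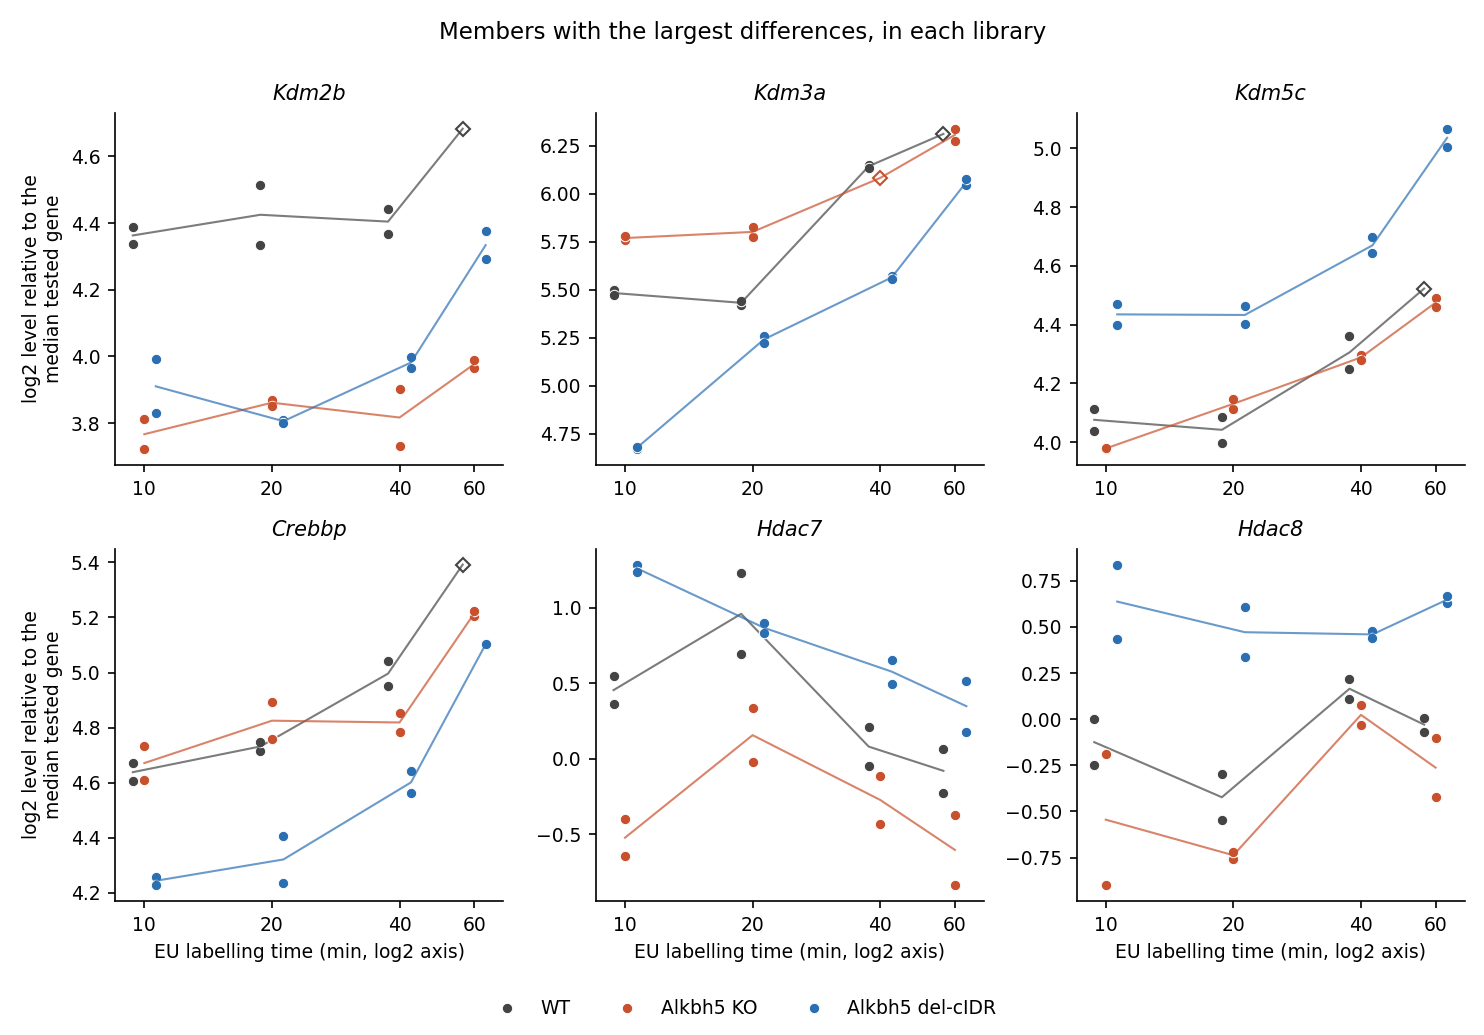
Level in each library of 6 members with large differences from WT, as log2 relative to the median tested gene (y axis), against EU labelling time in min (x axis, log2). Points are libraries, open diamonds are joint values of 2 libraries, and lines join group means. Kdm2b is lower in both mutants, Kdm3a and Crebbp are lower in del-cIDR, Kdm5c and Hdac8 are higher in del-cIDR, and Hdac7 is lower in KO and above WT in del-cIDR at 3 of the 4 times.

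All 5 members that passed as higher in KO lie on chromosome 6 (Ezh2, Kdm5a, Kdm7a and Kdm3a) or chromosome 8 (Kat6a), taking chromosomes from GENCODE M21 on build GRCm38. They are also the only members on these chromosomes. The genes of both chromosomes were displaced together in KO, with a median of 0.40 over 1120 tested genes of chromosome 6, of which 645 were higher and 45 lower, and 0.33 over 1108 of chromosome 8, of which 628 were higher and 46 lower. Medians of the other chromosomes lay between −0.06 and −0.01. Of the 46 members elsewhere 0 were higher and 18 lower, against 9.6% and 17.6% of the 19256 tested genes on the other chromosomes. When each gene was instead centred on the median gene of its own chromosome, a setting chosen after seeing the data, 0 members were higher and 15 lower in KO, against 12.6% and 13.6% of all genes (26.2% in either direction). Ezh2 then stood at 0.12 (limma adjusted p = 0.077), Kdm5a at −0.04, Kdm7a at −0.10, Kat6a at −0.08 and Kdm3a at −0.20, and Kdm3a passed as lower. Among members on other chromosomes that were still called, Kdm2b stood at −0.56, Hdac7 at −0.52, Suz12 at −0.42, Hdac6 at −0.38, Eed at −0.37 and Ezh1 at −0.29. Whether the KO line differs from WT in copies of chromosomes 6 and 8 was not tested, and such a difference cannot be told apart from the genotype here.

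In del-cIDR the X chromosome was displaced, with a median of 0.25 over 675 tested genes against −0.14 to 0.02 for the other chromosomes. The 5 X-linked members spread around it, with Hdac8 and Kdm5c higher, Kdm6a and Suv39h1 lower and Hdac6 not called. Chromosomes 8, 12 and 6 had the lowest medians, at −0.14, −0.12 and −0.10. On them 51, 47 and 78 genes were higher and 352, 224 and 271 lower. Kdm3a and Kdm5a, which passed as lower, lie on chromosome 6, as do Kdm7a, which passed as higher, and Ezh2, which was not called. Kat6a, on chromosome 8 and not called, was at −0.15, near the median of that chromosome. With each gene centred on its own chromosome 4 members were higher and 16 lower in del-cIDR (10.3% and 13.9% of all genes, 24.2% in either direction). Hdac8 was then still called at 0.38 (limma adjusted p = 0.015), Kdm5c was at 0.13 and was not called, Hdac6 passed as lower at −0.20, and Kdm6a and Suv39h1 were at −0.50 and −0.49.

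**Figure D4:**
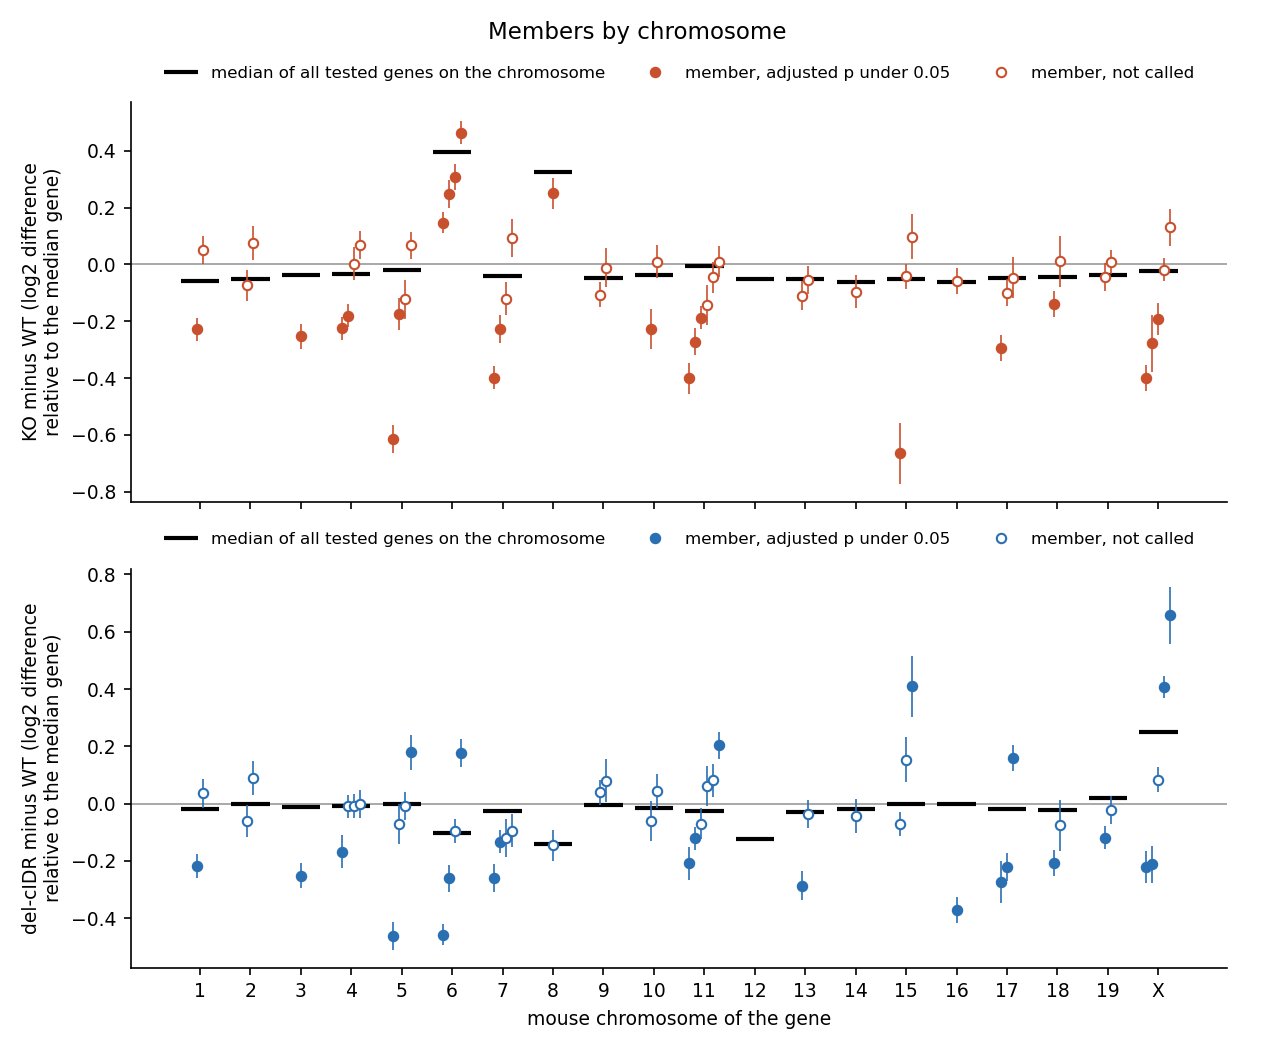
Differences of the 51 members from WT by chromosome, KO in the upper panel and del-cIDR in the lower, as log2 relative to the median gene (y axis) with limma standard errors. Black bars are medians of all tested genes on the chromosome, filled points passed an adjusted p of 0.05 and open points did not. In KO the members above 0 that passed sit on chromosomes 6 and 8, whose medians are 0.40 and 0.33. In del-cIDR the median of the X chromosome is 0.25.

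Set directly against each other, the mutants differed in 27 members, 14 higher and 13 lower in del-cIDR than in KO, where 43.5% of all genes were called in either direction, 21.1% as higher and 22.4% as lower. Hdac7 (1.07 ± 0.11) and Hdac8 (0.93 ± 0.10) were the most higher, followed by Suz12, Ezh1, Hdac6, Kdm4b and Kdm5c at 0.42 to 0.48. At the other end were Kdm3a (−0.60 ± 0.04), Kdm5a (−0.57 ± 0.04), Ezh2 (−0.56 ± 0.04), Kat6a (−0.40 ± 0.05), Suv39h1 (−0.34 ± 0.06) and Crebbp (−0.32 ± 0.04). In 15 members the libraries of the mutants did not overlap at any of the 4 times (19.7% of all genes). In 8 of them del-cIDR was higher (8.72%) and in 7 lower (11%). Joint values at 40 min, for 4 members in KO and 7 in del-cIDR, enter this count too. Of the 4 chromosome 6 members, 3 were lower in del-cIDR, and the chromosome's median was −0.48.

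The counts of higher and lower calls depend on the scale. Without centring, on the spike-in scale of the deposited values, the median tested gene stood 0.30 above WT in KO and 0.15 above WT in del-cIDR. These values average over times that differed. At 10, 20, 40 and 60 min the median gene stood at 0.73, 0.23, −0.07 and 0.30 in KO against WT. In del-cIDR it stood at −0.54, 0.73, 0.34 and 0.075. On that scale 4 members were higher and 0 lower in KO (21.9% and 2.63% of all genes, 24.5% in either direction), namely Ezh2, Kdm5a, Kdm7a and Kat6a at 0.56 to 0.78. In del-cIDR 2 were higher and 0 lower (5.69% and 2.23%, 7.92% in either direction), namely Hdac8 at 0.83 and Kdm5c at 0.58. Between the mutants 2 were higher and 5 lower (6.57% and 17%, 23.6% in either direction), with Hdac7 at 0.94 and Hdac8 at 0.80, and Kdm3a, Kdm5a, Ezh2, Kat6a and Suv39h1 at −0.74 to −0.48. None of the 18 members that were lower in KO relative to the median gene passed there. Kdm2b stood at −0.30, Hdac7 at −0.35 and Hdac6 at −0.08. The WT slope on that scale was positive and called in all 51 members, as in 95.5% of all genes, with 0.0267% called as falling.

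In WT the level of 26 members rose with labelling time relative to the median gene and that of 3 fell, against 23.7% and 9.7% of all tested genes (33.4% in either direction), with a median slope of 0.11 for the members and 0.04 for all genes (log2 per factor of 2 in minutes, limma). This balance depends on the normalization, as quantile normalized values gave 6 rises and 9 falls. Relative to the median gene, the demethylases (10 of 15), the acetyltransferases (7 of 9), the PRC2 core (3 of 4) and the H3K9 enzymes (3 of 5) held most of the rises, and the deacetylases had 0 rises and 2 falls. Suz12 had the highest slope at 0.37 ± 0.04, followed by Kdm3a at 0.36 ± 0.03 and Suv39h2 at 0.29 ± 0.04, and the lowest were Hdac7 at −0.27 ± 0.08, Kdm6b at −0.18 ± 0.04 and Hdac6 at −0.10 ± 0.03. In KO 21 members rose and 0 fell (17.6% and 6.79% of all genes, 24.4% in either direction), and in del-cIDR 34 rose and 6 fell (29.5% and 13.6%, 43% in either direction).

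Suv39h2, the second SUV39 enzyme of heterochromatin, had WT levels of 1.69 and 1.33 after 10 min, 1.09 and 1.30 after 20 min, 1.99 and 1.96 after 40 min and 2.18 and 2.06 after 60 min. Its KO levels were 1.84 and 1.92 after 10 min, 1.51 and 1.55 after 20 min, 1.76 and 1.70 after 40 min and 1.99 and 1.94 after 60 min. In del-cIDR it was at 1.37 and 1.12 after 10 min, 1.95 and 1.81 after 20 min, 1.89 and 1.86 after 40 min and 2.12 and 2.19 after 60 min. The KO libraries were thus above WT at 10 and 20 min and below it at 40 and 60 min, a slope difference of −0.25 ± 0.06 that did not pass (limma adjusted p = 0.22). Kdm6b, a short-lived inducible H3K27 demethylase transcript, had WT levels of 3.25 and 3.43 after 10 min, 3.51 and 3.51 after 20 min, 2.89 and 2.98 after 40 min and 3.02 and 2.99 after 60 min. KO levels were 3.20 and 3.26 after 10 min, 3.39 and 3.33 after 20 min, 3.08 and 3.10 after 40 min and 3.08 and 3.20 after 60 min. The del-cIDR levels were 3.78 and 3.41 after 10 min, 2.96 and 2.98 after 20 min, 2.94 and 2.96 after 40 min and 3.05 and 2.91 after 60 min. In WT and del-cIDR its 10 min libraries were above its 60 min libraries, while in KO the nearest of them were both at 3.20, and the slope was −0.06 ± 0.04 in KO, which did not pass, and −0.23 ± 0.04 in del-cIDR, which did.

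The slope differed from WT in 0 members in KO (limma, 0.00891% of all genes). It differed in 1 member in del-cIDR (1.11% of all genes, 0.834% as higher and 0.272% as lower), Kat7, with a difference of 0.22 ± 0.04 (limma adjusted p = 0.031). Kat7 was 0.48 below WT in del-cIDR at 10 min, 0.10 and 0.04 below it at 20 and 40 min and 0.14 above it at 60 min. In Kdm3a the same contrast gave 0.14 ± 0.04 (limma adjusted p = 0.10) in del-cIDR and −0.15 ± 0.04 (limma adjusted p = 0.23) in KO. At an unadjusted limma p under 0.05 the slope differed in 8 members in KO and 10 in del-cIDR, and limma voom called 1 in KO. The share of all genes under these rules was not counted, so these numbers cannot be read as an excess.

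**Figure D5:**
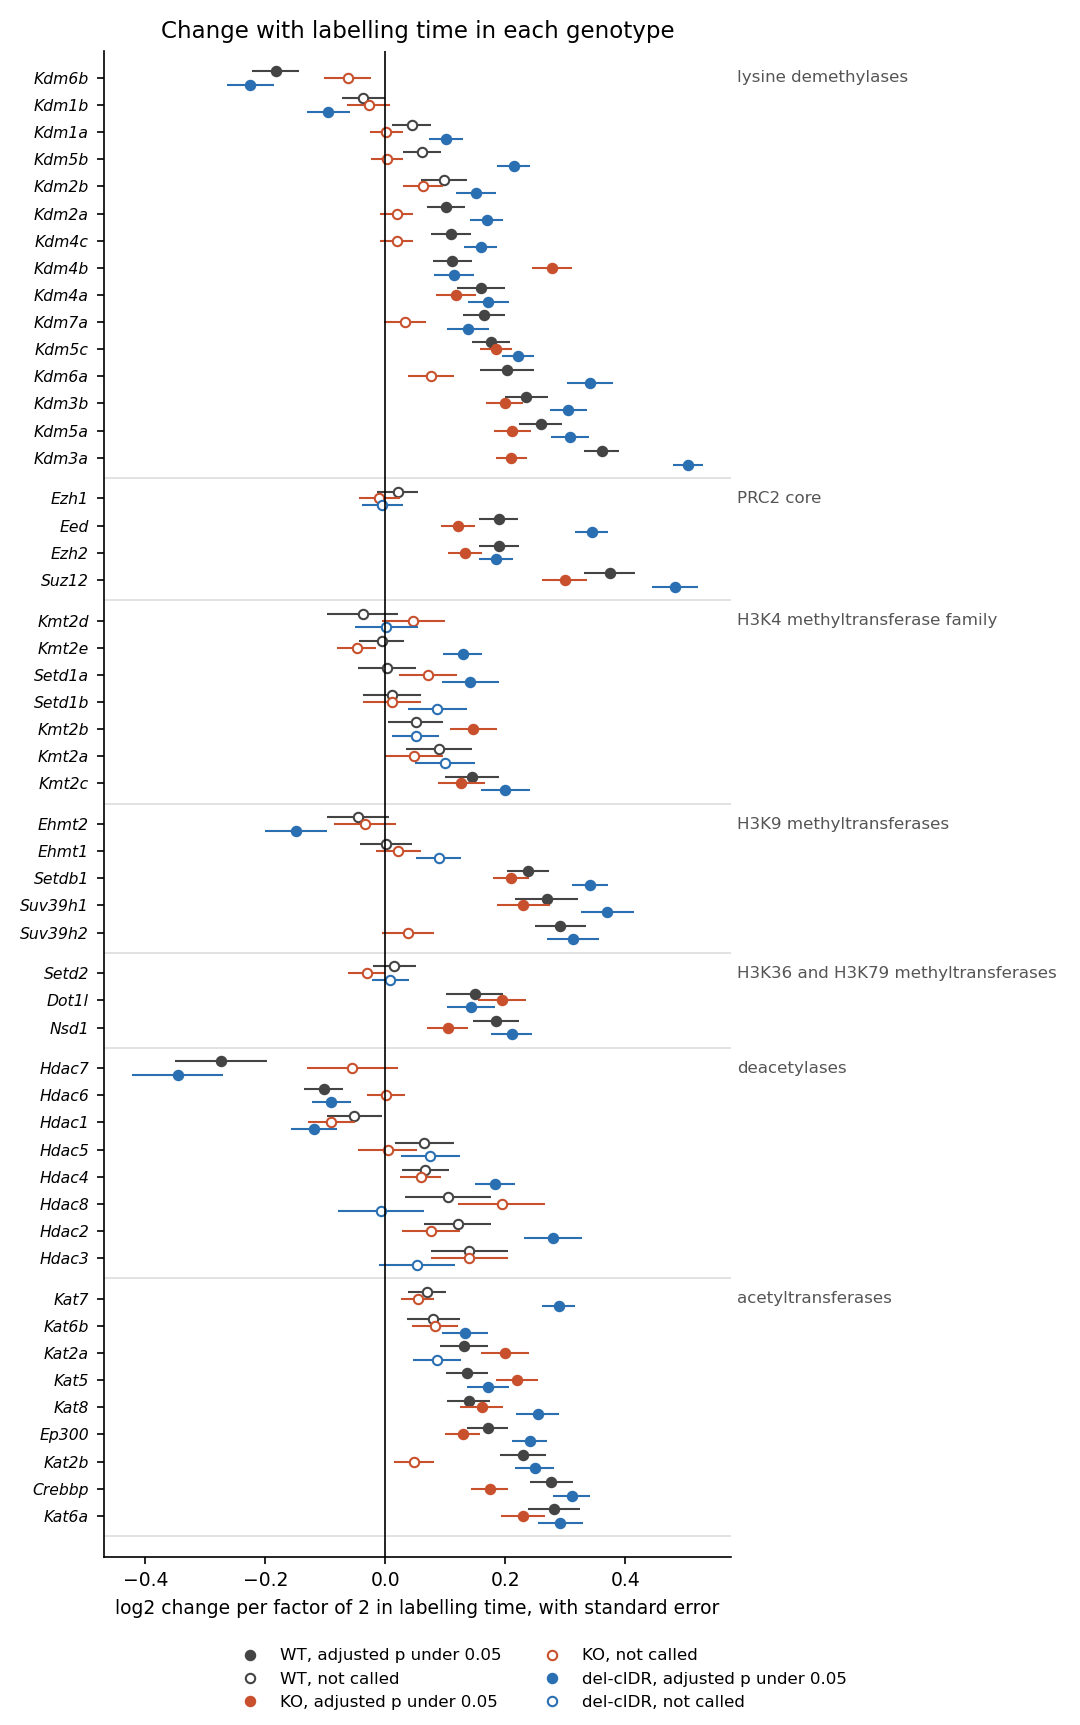
Slope of each member with labelling time relative to the median gene, as log2 change per factor of 2 in minutes (x axis) with limma standard errors, for WT (grey), KO (orange) and del-cIDR (blue), grouped by role. Filled points passed an adjusted p of 0.05 and open points did not. Most points lie above 0, and those of Hdac7, Hdac6, Kdm6b, Hdac1, Kdm1b and Ehmt2 lie below 0 in WT and del-cIDR.

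In the authors' deposited table, whose values are log2 ratios of each genotype to its own 10 min level after spike-in scaling, every member was above 0 at every later time. At 60 min the members' median in the authors' deposited table was 2.30 in WT, 1.84 in KO and 2.97 in del-cIDR, against medians of 2.09, 1.67 and 2.72 over the tested genes. In WT at 60 min the authors' deposited table runs from 1.50 for Hdac7 to 2.88 for Suz12, in KO from 1.35 for Hdac1 to 2.39 for Suz12 and in del-cIDR from 1.68 for Hdac7 to 3.94 for Kdm3a. In the authors' deposited table Ezh2 reached 0.64, 2.13 and 2.39 at 20, 40 and 60 min in WT, 0.36, 1.29 and 1.92 in KO and 2.26, 3.02 and 3.05 in del-cIDR. Such ratios carry the 10 min level of each genotype in every value, so they hold no difference between genotypes at 10 min.

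The members are long genes, with a median length of 44.0 kb (GENCODE M21, GRCm38) against 23.7 kb for tested genes with a coding transcript, from 7.2 kb for Kat5 to 266.9 kb for Hdac4. Across the 51 members gene length was only weakly related to the WT slope (Pearson's r = 0.13, Spearman's rho = 0.14) and to the KO difference (r = −0.05), points that share libraries and genes that are not independent. GGACT, a common form of the motif in which adenosine is methylated, occurred at a median of 1.10 per kb in the longest coding transcript of the members and 1.05 per kb over 14606 tested genes. The range was from 0 in the Suz12 transcript of 4373 bases to 2.25 per kb in Suv39h1. Its density had r = 0.09 with the KO difference and −0.31 with the del-cIDR difference across the members, given as descriptions. Setd1a shares 51.9% of its exon bases with another annotated gene on the same strand, and Kdm3b, Hdac4, Suv39h1 and Kat5 share 12.1 to 24.6% with genes on the opposite strand, so their reads are uncertain where the counting did not separate them.

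The 130 tested partner genes belong to the same pathways, and 37 of them are other enzymes rather than partners in a complex. In KO 29 were higher and 25 lower (22.3% and 19.2%, against 14.2% and 16% of all genes). The median difference was −0.02, as for all genes. Over all genes, 645 and 628 of the 3191 higher ones lie on chromosomes 6 and 8, as do 45 and 46 of the 3597 lower ones. Of the 29 higher partner genes 18 lie there, and of the 25 lower ones 0 do. The 3 largest rises were Hdac9, a class IIa deacetylase gene (1.62 ± 0.22), Jade2, of the KAT7 complexes (1.06 ± 0.09), and Smyd5 on chromosome 6 (0.56 ± 0.06), and the 3 largest falls Uty (−0.88 ± 0.11) and Kdm5d (−0.85 ± 0.28), the Y-linked paralogues of Kdm6a and Kdm5c, and Pcgf5, of variant Polycomb repressive complex 1 (−0.59 ± 0.06). None of the 8 PRC2 accessory genes was higher and 1 was lower. In del-cIDR 14 partner genes were higher and 38 lower (10.8% and 29.2%, against 10.1% and 15.4% of all genes). The median of the partner genes was −0.09 against −0.02. Over all genes, 271 and 352 of the 3451 lower ones lie on chromosomes 6 and 8, as do 78 and 51 of the 2272 higher ones. Of the 38 lower partner genes 9 lie there, and of the 14 higher ones 1 does. The genes of acetyltransferase complexes held 17 of the 38, out of 30 tested, with 2 higher and a median of −0.16, and the H3K9 partners 4 of 6. On the deposited spike-in scale 0 of these 30 were lower and 1 was higher, with a median of 0.02, and 0 of the 6 H3K9 partners were called. The 3 largest falls were all subunits of acetyltransferase complexes, Brpf3 (−0.49 ± 0.05), Epc1 (−0.48 ± 0.06) and Tada3 (−0.46 ± 0.06), and the 3 largest rises Kdm5d (1.52 ± 0.28), Hdac11 (0.53 ± 0.13) and the H3K4 monomethyltransferase gene Setd7 (0.51 ± 0.08).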

How the data were processed

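EU-labelled RNA of 24 libraries was captured, mixed beforehand with an equal amount of labelled Drosophila RNA, and sequenced with a stranded total RNA kit, per the labels' protocols. Per the submitters' processing notes HISAT2, SAMtools, Picard and GRCm39 were used; which program counted reads, and whether by strand, is not given in the sources used here. The authors deposited log2 ratios per gene of each genotype at 20, 40 and 60 min, per the file headers; that they are relative to 10 min and combine both replicates was read from the file name and the values. The ki columns were taken as del-cIDR, the remaining genotype.

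Whole reads per library were solved from these ratios, each modelled as spike-in scaled reads times 40000 plus 1 (numba 0.67.0). This returned reads for 99.968 to 100% of genes with a ratio in each genotype, within a relative error of at most 2.9e-15. It was tested on simulated data. Where a group's sum had several splits into 2 libraries and none was clear, the mean entered as 1 value (2816 tested genes). Between 53.1 and 58.2% of nonzero counts were even, so some reads may have been counted as pairs.

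Reads were scaled to 11714 spike-in reads, logged with a pseudocount of 1, centred on the median tested gene and fitted with limma 3.58.1 (R 4.3.3), 1 coefficient per genotype and time, on genes averaging a level of 10 or more with reads in 6 or more libraries. P-values were adjusted over all 22435 genes. Values in every library are given for members that pass and have 1 of the 6 largest differences from WT in either mutant, for Ezh2 and for the 3 highest and 3 lowest WT slopes; other members are named with their values. Partner genes are named for the 3 largest passing differences each way. Members and lists were chosen with earlier results of these data known. The table of repeats was not used. Of the deposited identifiers 51948 of 56941 matched a symbol.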

Additional observations from a re-analysis of the deposited data

Results flagged for a closer look

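The del-cIDR slope of Kat7 with labelling time differed from that of WT by 0.22 ± 0.04 (log2 per factor of 2 in minutes, limma adjusted p = 0.031), a test of the difference itself. The Kat7 slope was 0.07 ± 0.03 in WT, 0.05 ± 0.03 in KO and 0.29 ± 0.03 in del-cIDR. All 4 del-cIDR libraries at 10 and 20 min were below the WT libraries of their time, and both at 60 min were above the joint WT value. The call was lost without the 10 min libraries, on quantile normalized and spike-in scaled values, with no filter on low levels and when any of 10 libraries was left out, and it remained with a pseudocount of 10 and with each gene centred on its own chromosome.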

How the results depend on the processing

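No paired analysis was possible because the deposited columns carry no replicate numbers. Of the 23, 25 and 27 members called in KO minus WT, del-cIDR minus WT and del-cIDR minus KO (the values given for them in this order below), 20, 18 and 22 kept call and direction under quantile normalization, 20, 22 and 25 with a pseudocount of 10, 23, 23 and 26 at a mean level of at least 50, 20, 16 and 24 without the 10 min libraries, 22, 25 and 27 with limma voom, and 18, 22 and 24 centred without chromosomes 4, 6, 8, 11 and X. Leaving out 1 library at a time gave 19 to 23, 19 to 24 and 22 to 27 calls, 23 to 30 for the WT slope, 0 to 1 for the KO minus WT slope and 0 to 1 for the del-cIDR minus WT slope. Calls lost without some library were Hdac2, Hdac8, Kdm3b and Kmt2c in KO, Eed, Hdac1, Kat7, Kdm2a, Kdm4b, Kmt2c and Suv39h1 in del-cIDR, and Ehmt2, Hdac1, Hdac5, Kat2a, Kat2b and Setd1a between the mutants.

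The deposited spike-in scale gave 4, 2 and 7 calls, and signs turned there for Kdm1a 0.14, Kdm3b 0.17, Kdm4b 0.022, Kdm4c 0.090, Kdm5b 0.087, Kdm6a 0.12, Ezh1 0.043, Kmt2c 0.14, Setdb1 0.062, Hdac2 0.087, Hdac8 0.038, Kat7 0.13 and Kat8 0.088 in KO, and for Kdm2a 0.058, Eed 0.044, Hdac1 0.009 and Kat7 0.056 in del-cIDR, against WT. On that scale the median gene stood 0.30 above WT in KO and 0.15 above WT in del-cIDR, and the cause was not tested. Centred on the own chromosome, added after seeing the data, KO had 15 calls, and signs turned for Kdm3a −0.20, Kdm5a −0.038, Kdm7a −0.10 and Kat6a −0.076 in KO, for Hdac6 −0.20 in del-cIDR, and for Kdm7a 0.37 and Kat6a 0.050 between the mutants. Without a filter on low levels 14 members were called in del-cIDR minus WT and 17 between the mutants. With the 34 members of unclear splits left out, 17 remained to be tested, of which 6, 8 and 9 were called, and 8 for the WT slope. The WT slope depends on the scaling, with 51 rises on the spike-in scale and 6 rises and 9 falls (15 calls) after quantile normalization, where the cause was not tested. The single del-cIDR slope call became 0 on the spike-in scale, under quantile normalization, with no filter, without the 10 min libraries and with unclear splits left out, and 4 with limma voom, which gave 1 for KO.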
